A study of Homo sapiens with 12 samples.

Results

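Lysosomal enzymes, their cofactors, lysosomal membrane proteins and the transcription factors TFEB, TFE3 and MITF were followed in HK-2 cells exposed to 3 nephrotoxic drugs. The members were 54 of the 58735 genes in the count table, found by their gene name in a list of known lysosomal genes. No threshold on a measured value entered the rule, but the list was chosen with earlier results of these data known. HK-2 is an established, immortalised human cell line from the renal proximal tubule, so all groups share a single genetic background. RNA was sequenced in 12 samples, 3 in each of 4 groups. The control group received H2O, and no duration of its own is given for it. The iohexol group received the iodinated contrast medium iohexol at 75 mg I/mL, the cisplatin group the platinum compound cisplatin at 5 μM, and the vancomycin group the glycopeptide antibiotic vancomycin at 4 mM, each for 48 h. No source used here says that the 3 samples of a group came from separate cultures, so that the p-values measure the spread between these samples, which may be technical.

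Lysosomes are acidic organelles in which hydrolases break down proteins, glycans, glycosaminoglycans and lipids. Newly made hydrolases carry a mannose 6-phosphate tag and are delivered by the receptors M6PR and IGF2R, while highly glycosylated membrane proteins such as LAMP1 and LAMP2 line the organelle and transporters release the products of digestion. The transcription factors TFEB, TFE3 and MITF bind an E-box of the form CACGTG, often within a longer palindrome, near many lysosomal genes. Proximal tubule cells take up filtered proteins from the tubular fluid and degrade them in lysosomes.

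The samples held 14057282 to 18177109 counts, at which the floor of 3 counts stood for 0.165 to 0.213 CPM (counts scaled by the library total and its TMM factor), a floor that covers counting error only. Among 12 markers of the proximal tubule, PAX8 and GGT1 were expressed (372 and 190 CPM on average in the control group), ANPEP and SLC5A2 were low (1.44 and 1.43 CPM), and CUBN, SLC34A1 and AQP1 lower still (0.707, 0.314 and 0.271 CPM), whereas LRP2, SLC22A6, SLC22A8 and HNF4A had at most 3, 0, 1 and 3 counts in any sample. Of 8 leukocyte markers, PTPRC, LYZ, HLA-DRA and TYROBP had at most 5, 3, 1 and 1 counts in any sample, whereas CD74, CSF1R, ITGAM and CD14 were at 60.6, 13.5, 1.03 and 0.790 CPM in the control group. Replicates of a group were not identical within counting error, with chi-square values of 2.28 to 15.5 per degree of freedom. Iohexol replicate 3 stood apart from the others of its group (14.6 and 15.5, against 3.56 between the other two), and in the control group replicate 1 differed most from the rest (7.30 and 9.75, against 3.07).

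For 41 of the members the RefSeq table of promoters (GRCh38.p14) held a window from 250 bases before to 50 bases after a transcription start, and 14 of these 41 genes (34.1%) had CACGTG in a window, compared with 8.78% of the 27305 genes in the table. The longer palindrome TCACGTGA, which contains CACGTG, was present for 7 members (17.1%, against 1.18% of all genes), and GTCACGTGAC, which contains both, for 4 members (9.76%, against 0.421%). A gene counted when any of its windows held the word, so that genes with more windows had more occasions for a match. The 41 members had 64 windows and the 27305 genes had 35116, and 7.26% of these 35116 windows held CACGTG. All 3 words read the same on both strands. The 200 bases before the start are shown for genes whose values are described below. They are a structural membrane protein (LAMP1, chr13:113297039-113297238, plus strand) and 3 hydrolases whose transcripts differed between drugs (CTSA, chr20:45891135-45891334, plus strand; CTSD, chr11:1763928-1764127, minus strand; NEU1, chr6:31862822-31863021, minus strand). To these are added the calcium channel MCOLN1 (chr19:7522424-7522623, plus strand), the sulfatase ARSB (chr5:78985959-78986158, minus strand, the window with the match of 2 windows) and the protease CTSL (chr9:87725919-87726118, plus strand), in whose window these letters were not found. Capitals mark CACGTG.
LAMP1: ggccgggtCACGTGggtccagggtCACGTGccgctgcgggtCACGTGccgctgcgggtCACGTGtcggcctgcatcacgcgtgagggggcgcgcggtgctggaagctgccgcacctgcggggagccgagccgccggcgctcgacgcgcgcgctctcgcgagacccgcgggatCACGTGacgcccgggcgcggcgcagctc
CTSA: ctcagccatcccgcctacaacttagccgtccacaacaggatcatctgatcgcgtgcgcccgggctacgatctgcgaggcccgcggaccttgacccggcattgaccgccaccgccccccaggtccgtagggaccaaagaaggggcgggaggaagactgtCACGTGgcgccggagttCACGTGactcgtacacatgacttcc
CTSD: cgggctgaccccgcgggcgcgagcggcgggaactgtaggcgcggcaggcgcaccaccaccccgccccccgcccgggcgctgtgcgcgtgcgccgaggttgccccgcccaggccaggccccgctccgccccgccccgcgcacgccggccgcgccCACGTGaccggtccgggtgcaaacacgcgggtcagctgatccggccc
NEU1: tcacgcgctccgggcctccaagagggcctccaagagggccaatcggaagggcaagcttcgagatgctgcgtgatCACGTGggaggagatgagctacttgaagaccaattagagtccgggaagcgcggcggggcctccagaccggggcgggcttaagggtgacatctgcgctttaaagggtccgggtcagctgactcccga
MCOLN1: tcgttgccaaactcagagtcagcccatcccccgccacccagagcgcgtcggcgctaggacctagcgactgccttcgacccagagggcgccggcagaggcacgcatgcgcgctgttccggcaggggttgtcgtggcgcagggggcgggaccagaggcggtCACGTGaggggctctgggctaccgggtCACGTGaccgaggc
ARSB: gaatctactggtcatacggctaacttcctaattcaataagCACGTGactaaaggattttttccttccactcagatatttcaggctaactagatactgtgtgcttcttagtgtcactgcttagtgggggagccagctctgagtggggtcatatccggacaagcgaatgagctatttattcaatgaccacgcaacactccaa
CTSL: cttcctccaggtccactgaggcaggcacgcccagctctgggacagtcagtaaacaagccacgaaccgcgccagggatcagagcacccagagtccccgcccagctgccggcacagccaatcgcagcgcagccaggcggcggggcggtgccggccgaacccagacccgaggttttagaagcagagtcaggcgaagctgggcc
LAMP1 had 5 copies of CACGTG in these 200 bases, CTSA and MCOLN1 had 2 each, and CTSD, NEU1 and ARSB had 1 each. A match describes the letters of a window and does not show that a factor was bound.

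The lysosomal genes took a larger share of all counts in the vancomycin group than in any other. There the 54 genes held 1.33%, 1.42% and 1.41% of the counts of the 3 samples. The share was 0.703%, 0.748% and 0.747% in the control samples, 1.06%, 1.05% and 0.918% with iohexol, and 0.724%, 0.721% and 0.735% with cisplatin. All iohexol and vancomycin samples lay above all control samples, and the cisplatin samples lay within the control range. In scaled counts, the sum over the members was 7567 ± 269 CPM (SD, n = 3) in the control group, 9818 ± 726 with iohexol, 6459 ± 64.9 with cisplatin and 15537 ± 644 with vancomycin. The sum did not rest on its most abundant gene alone, since without PSAP it was 5830 ± 240, 7339 ± 528, 4869 ± 41.2 and 11137 ± 379 CPM. In these bulk samples, fewer cells of a type and less RNA per cell cannot be told apart.

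**Figure D1:**
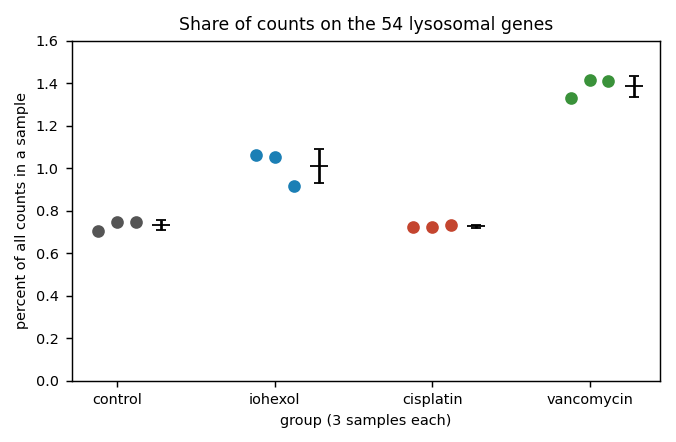
Percent of all counts of a sample that fell on the 54 lysosomal genes, with a point for each of the 3 samples of each group and a line at the group mean. The vancomycin samples lie between 1.33% and 1.42%, above every other sample, and the iohexol samples between 0.918% and 1.06%, above the control samples.

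Most of the lysosomal genes were higher with vancomycin. Of 53 members tested, 46 rose and 1 fell relative to the control group by edgeR's quasi-likelihood test (adjusted p under 0.05), whereas 29.0% of all 15819 genes tested rose and 28.8% fell. The median log2 fold change was 0.81 over the members and -0.01 over all genes. DEGs, with an absolute log2 fold change above 1 in addition, numbered 21, of which 20 were higher and 1, MITF, was lower. Over all genes, 18.5% were DEGs, 10.8% higher and 7.65% lower. For 47 of the 53 members the vancomycin samples did not overlap the control samples, which held for 63.2% of all genes. The members that did not pass the test were CTSC, GGH, ACP2, LAMP2, MCOLN1 and CTNS, with log2 fold changes between -0.25 and 0.30. IFI30 and CLN3 are among the members that rose with each drug, but no control sample of either reached the level of the filter on low counts (0.600 to 0.673 CPM), so that they were tested only because they were high in the treated samples. Without both genes, 44 of 51 members rose with vancomycin, with 18 DEGs higher and a median of 0.805, 20 rose with iohexol (7 DEGs, median 0.29), and 10 rose and 24 fell with cisplatin (3 DEGs higher, median -0.15). Of the members that did not pass with vancomycin, ACP2 passed without control replicate 1 (-0.34), and MCOLN1 passed without vancomycin replicate 2 (0.45) or control replicate 3 (0.40).

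Fewer members were higher with iohexol. With it 22 members rose and 2 fell (11.2% and 9.77% of 15657 genes), with a median log2 fold change of 0.29 against 0.01 over all genes. The 9 DEGs were all higher than in the control group. Over all genes, 5.28% were DEGs, 4.02% higher and 1.25% lower. For 31 members the samples did not overlap (37.9% of all genes). Iohexol replicate 3 was the lowest of its group for CTSA, CTSB, CTSD, CTSZ and CD63, among other members. For others, such as ASAH1, LIPA, TPP1 and LAMP2, iohexol replicate 3 was the highest of its group. Without it 29 members rose and 3 fell, and 17 rose without iohexol replicate 2 or control replicate 2. Without iohexol replicate 2 neither of the 2 members that fell, MITF (-0.36) and ARSB (-0.39), passed the test.

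With cisplatin the members changed in both directions. By the same test 12 members rose and 24 fell (29.2% and 30.6% of 15876 genes), with a median of -0.13 against 0.01 over all genes. DEGs numbered 7, of which 5 were higher and 2 lower. Over all genes, 16.3% were DEGs, 7.62% higher and 8.72% lower. For 40 members the samples did not overlap the controls (65.1% of all genes). This split depended on the scaling. With library size alone in place of TMM factors, 23 members were called higher and 18 lower, so that the share of higher calls was 56.1% and not 33.3%, while the median of all genes shifted by 0.22 on the log2 scale. In the iohexol and vancomycin comparisons the same change of scaling shifted the median of all genes by 0.07 and -0.08 and gave 27 higher and 1 lower, and 44 higher and 3 lower. Transcribed span also moved with the cisplatin calls. The members that fell had a median genomic span of 32.0 kb, those that rose 11.8 kb and the others 20.2 kb, and the medians over all genes were 69.2, 14.8 and 22.0 kb. With vancomycin the medians over all genes were 46.5 kb for those that fell, 18.5 kb for those that rose and 24.9 kb for the others. With iohexol they were 36.9, 31.5 and 26.6 kb. The 2 members that fell with iohexol had a median of 219 kb, against 19.5 kb for those that rose. MITF, the 1 member that fell with vancomycin, spans 229 kb, against a median of 21.5 kb for those that rose. The part of span in these results was not tested. The 3 comparisons share the 3 control samples.

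**Figure D2:**
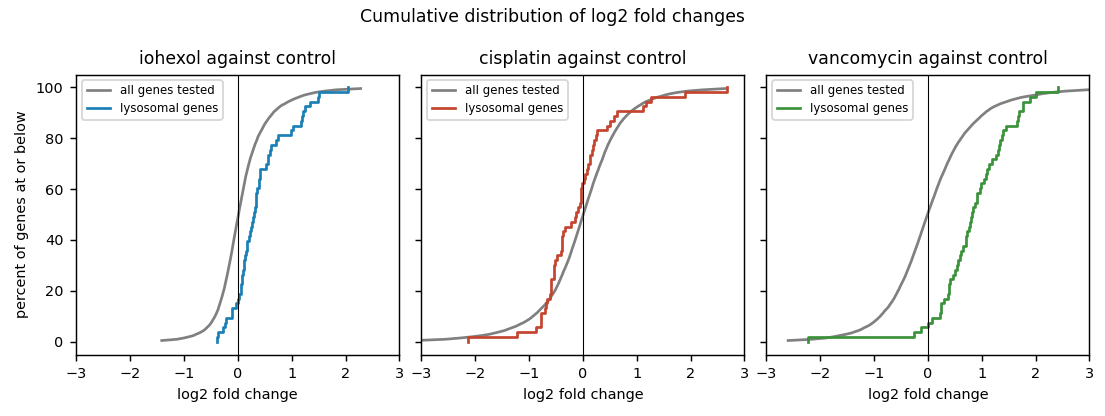
Cumulative distribution of log2 fold changes against the control group, in percent of genes at or below each value, for the 53 lysosomal genes tested (coloured) and all genes tested (grey) with each drug. The members' curve is shifted to the right with vancomycin (median 0.81) and less with iohexol (0.29), and with cisplatin it runs to the left of the curve of all genes at the centre (median -0.13).

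On a scale per length (RPKM, with the gene length of the count table), the levels of the members in the control group covered a wide range. PSAP, the precursor of the saposins that help hydrolases reach their lipid substrates, was the highest at 536 ± 9.13 RPKM (SD, n = 3), followed by the carboxypeptidase CTSZ at 321 ± 39.3. Then came the tetraspanin CD63 at 120 ± 27.1 and the membrane proteins LAMP2 at 97.3 ± 8.78 and LAMP1 at 67.9 ± 3.14, and the aspartic protease CTSD at 65.1 ± 12.4. CD63 and LAMP2, and LAMP1 and CTSD, did not differ beyond their spread. The lowest detected members were TFEB at 0.965 ± 0.107, IFI30 at 0.0983 ± 0.00947 and CLN3 at 0.0359 ± 0.00566 RPKM. GALC, which encodes galactosylceramidase, was listed at 0 counts in all 12 samples and was not tested. PSAP stayed the highest in every group (765 RPKM with iohexol, 491 with cisplatin and 1359 with vancomycin), while the next highest was CTSZ in the control, iohexol and cisplatin groups (357 and 188 RPKM with these drugs) and CD63 with vancomycin (495, next to 485 for CTSZ). With iohexol CTSD came next after CTSZ, at 180 RPKM.

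Proteases had the highest median with vancomycin of the 8 roles into which the members were sorted. Of the 14 cathepsins and other peptidases or thiol enzymes, 12 rose with vancomycin, 7 with iohexol and 5 with cisplatin, and 5 fell with cisplatin, with median log2 fold changes of 0.33 with iohexol, -0.04 with cisplatin and 1.39 with vancomycin (0.26, -0.04 and 1.33 without IFI30). CTSD (ENSG00000117984, chr11:1752752-1764573, minus strand) encodes the main aspartic protease of the lysosome. It was at 159, 225 and 226 CPM in the control samples, 666, 632 and 389 with iohexol, 125, 124 and 136 with cisplatin and 686, 759 and 694 with vancomycin. All iohexol and vancomycin samples lay above the controls and all cisplatin samples below. The log2 fold changes were 1.49 ± 0.19 (SE) with iohexol (adjusted p = 0.000183 in edgeR's test), -0.66 ± 0.10 with cisplatin (adjusted p = 1.79e-05) and 1.77 ± 0.11 with vancomycin (adjusted p = 1.55e-12). Of the exon bases of CTSD, 41.7% are shared with AC068580.4, a gene on the same strand that received 131 counts over the 12 samples against 74398 for CTSD.

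CTSB and CTSL, abundant cysteine proteases of the papain family, were DEGs with vancomycin and differed in their response to cisplatin. CTSB (ENSG00000164733, chr8:11842524-11869448) was at 338, 402 and 390 CPM in the control samples, 478, 465 and 383 with iohexol, 260, 271 and 258 with cisplatin and 1138, 1254 and 1281 with vancomycin. Its lowest vancomycin sample (1138 CPM) lay far above the highest sample of any other group (478 CPM). CTSB rose by 1.66 ± 0.09 on the log2 scale with vancomycin (adjusted p = 1.56e-13) and fell by 0.52 ± 0.06 with cisplatin (adjusted p = 2.15e-06), and its value with iohexol was 0.25 ± 0.10 (adjusted p = 0.112). CTSL (ENSG00000135047, chr9:87725519-87731393) was at 54.6, 57.5 and 58.3 CPM in the control samples, 64.8, 56.3 and 48.4 with iohexol, 69.0, 67.3 and 68.9 with cisplatin and 192, 240 and 224 with vancomycin. The iohexol samples of CTSL lay on both sides of the controls, and its cisplatin samples lay just above them. CTSL had the largest rise of a cathepsin with vancomycin, at 1.90 ± 0.10 (adjusted p = 4.63e-14), and a small rise with cisplatin, at 0.27 ± 0.07 (adjusted p = 0.0028).

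CTSA, the protective protein that stabilises neuraminidase and galactosidase in a complex, was at 147, 178 and 182 CPM in the control samples, 292, 292 and 232 with iohexol, 151, 146 and 160 with cisplatin and 538, 551 and 578 with vancomycin. It rose with vancomycin (1.68 ± 0.09, adjusted p = 2.25e-13) and by less with iohexol (0.71 ± 0.12, adjusted p = 0.00112), and the cisplatin samples overlapped the controls (-0.15 ± 0.07), although CTSA passed the test with cisplatin without control replicate 1 (-0.24). CTSS, a cysteine protease best known from antigen presentation, was at 51.1, 50.01 and 49.1 CPM in the control samples, 83.9, 78.1 and 86.6 with iohexol, 67.1, 67.6 and 69.2 with cisplatin and 158, 182 and 159 with vancomycin. The 4 groups of CTSS did not overlap each other, and CTSS rose with all 3 drugs, by 0.74 ± 0.09, 0.44 ± 0.07 and 1.69 ± 0.09. CTSZ, the most abundant cathepsin per length, was at 562, 705 and 697 CPM in the control samples, 830, 794 and 560 with iohexol, 384, 380 and 386 with cisplatin and 911, 1029 and 1026 with vancomycin. It had the largest fall of a protease with cisplatin (-0.77 ± 0.07, adjusted p = 5.02e-08) and rose by 0.55 ± 0.09 with vancomycin. With iohexol its value was 0.17 ± 0.14, and it passed the test without iohexol replicate 3 (0.33).

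The aminopeptidase CTSH, the tripeptidyl peptidase TPP1 and the collagen-degrading CTSK were DEGs with vancomycin as well. CTSH was at 31.9, 33.6 and 32.3 CPM in the control samples, 43.0, 39.5 and 32.7 with iohexol, 23.9, 25.0 and 25.9 with cisplatin and 86.7, 97.5 and 91.4 with vancomycin (1.45 ± 0.10). TPP1 was at 33.5, 30.6 and 37.0 CPM in the control samples, 41.9, 41.4 and 48.2 with iohexol, 26.7, 22.4 and 23.7 with cisplatin and 85.7, 83.4 and 91.9 with vancomycin (1.33 ± 0.10). Both genes fell with cisplatin (-0.39 ± 0.09 for CTSH and -0.47 ± 0.10 for TPP1), with no overlap with the controls. The rise of TPP1 with iohexol (0.40 ± 0.11, adjusted p = 0.0269) was lost without iohexol replicate 1 (0.42) or 2 (0.43) or control replicate 1 (0.39) or 2 (0.32), and CTSH passed with iohexol without iohexol replicate 3 (0.36). CTSK was low in all groups, at 2.90, 3.14 and 4.34 CPM in the control samples, 2.69, 2.75 and 3.21 with iohexol, 5.33, 5.05 and 4.37 with cisplatin and 6.13, 8.10 and 8.62 with vancomycin (1.09 ± 0.21, adjusted p = 0.000109). Its rise with cisplatin (0.50 ± 0.20, adjusted p = 0.0419) was lost without cisplatin replicate 1 (0.44) or 2 (0.48) or control replicate 1 (0.39) or 2 (0.42). The asparaginyl endopeptidase LGMN and the cysteine protease CTSF rose with iohexol (0.55 and 0.57) and vancomycin (0.77 and 0.81), and the iohexol call of CTSF was lost without iohexol replicate 1 (0.40). CTSC, which activates serine proteases of granules, did not pass the test with any drug, with values between -0.22 and -0.04, and it passed with iohexol without iohexol replicate 3 (-0.25).

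IFI30, a thiol reductase that opens disulfide bonds of internalised proteins, rested on few reads. It was at 0.218, 0.251 and 0.263 CPM in the control samples, 0.829, 1.15 and 1.07 with iohexol, 1.39, 1.42 and 2.01 with cisplatin and 1.63, 1.49 and 1.05 with vancomycin. All treated samples lay above all controls, and the vancomycin samples overlapped those of both other drugs. The fitted log2 fold changes were 2.04 ± 0.45, 2.68 ± 0.43 and 2.42 ± 0.49. They are a description only, because IFI30 passed the filter through the treated samples alone. The counts of IFI30 were 3, 4 and 4 in the control samples and 202 over all 12 samples. Of its exon bases, 40.2% are shared with AC007192.1 on the same strand. GGH, a folate-processing gamma-glutamyl hydrolase, was called higher with cisplatin (0.18 ± 0.08, adjusted p = 0.0463), and this call was lost when any of cisplatin replicates 1 (0.19), 2 (0.17) and 3 (0.19) or control replicates 2 (0.17) and 3 (0.10) was left out.

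**Figure D3:**
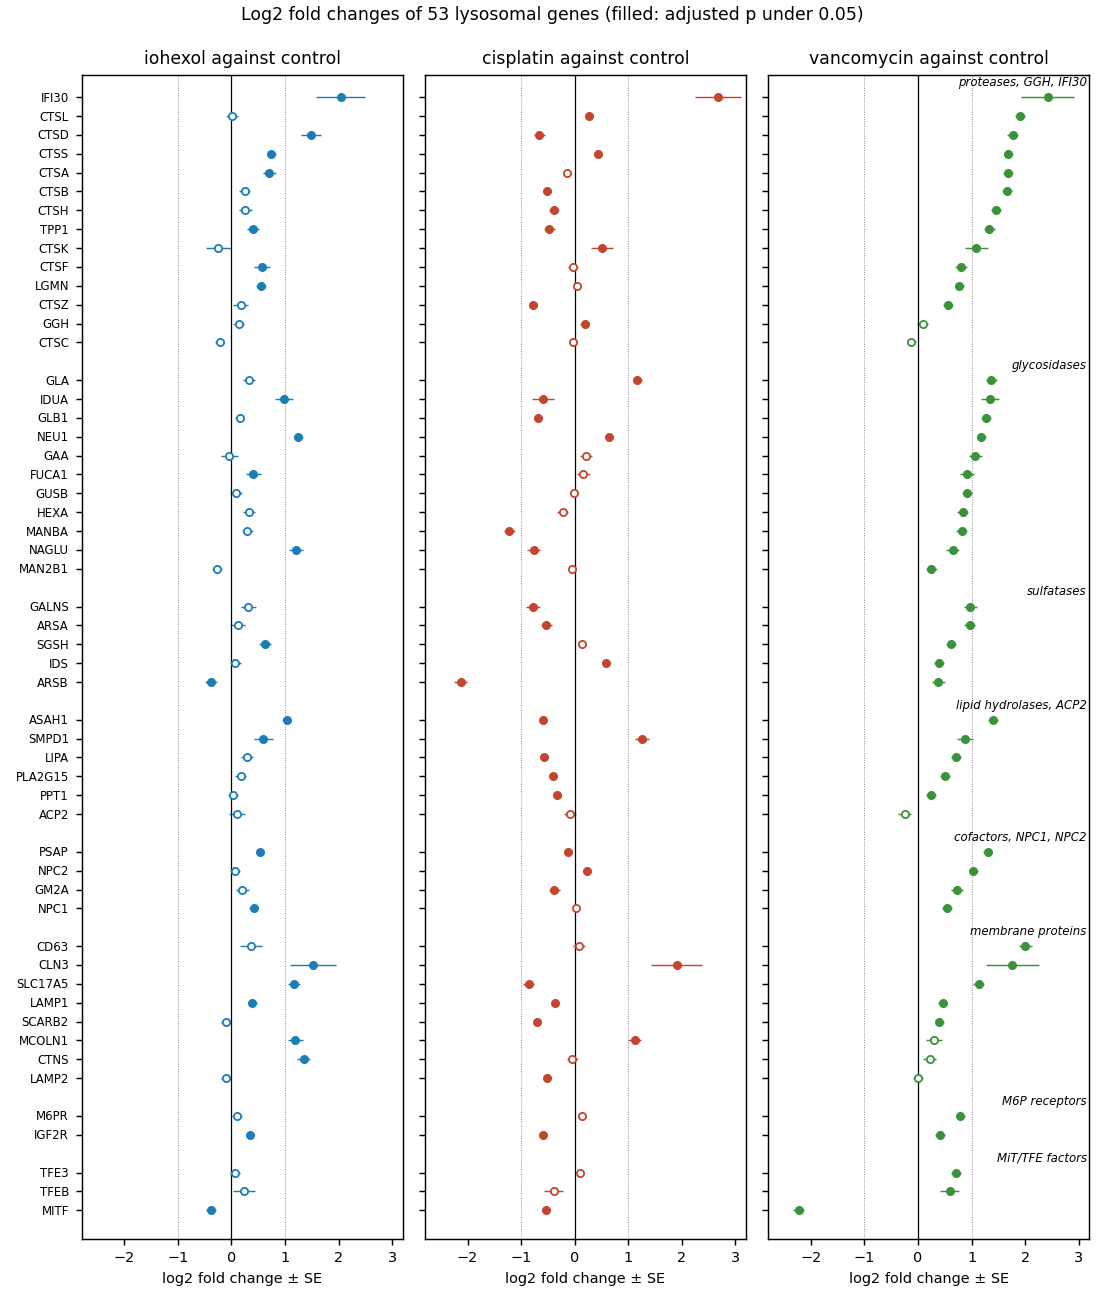
Log2 fold change against the control group (horizontal axis, bars of 1 SE) of the 53 lysosomal genes tested, grouped by role, with a panel for each drug and filled points for an adjusted p under 0.05. With vancomycin 46 filled points lie to the right of 0 and only MITF to the left, whereas with cisplatin 12 lie to the right and 24 to the left.

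All 11 glycosidases tested rose with vancomycin (median 0.92), 4 rose with iohexol (median 0.33), and with cisplatin 2 rose and 4 fell (median -0.05). NEU1, the lysosomal sialidase, was at 131, 136 and 135 CPM in the control samples, 340, 316 and 289 with iohexol, 208, 204 and 213 with cisplatin and 288, 317 and 335 with vancomycin. It rose with every drug, by 1.25 ± 0.09 with iohexol (adjusted p = 2.15e-06), 0.64 ± 0.06 with cisplatin (adjusted p = 5.09e-08) and 1.18 ± 0.09 with vancomycin (adjusted p = 4.54e-11). The iohexol and vancomycin samples of NEU1 overlapped, with a direct difference of 0.01 ± 0.08 (adjusted p = 0.943). GLA, the galactosidase that is deficient in Fabry disease, was at 47.3, 49.7 and 40.3 CPM in the control samples, 61.2, 52.6 and 56.5 with iohexol, 106, 101 and 103 with cisplatin and 114, 128 and 124 with vancomycin. It was a DEG with cisplatin (1.17 ± 0.08, adjusted p = 1.02e-09) and vancomycin (1.37 ± 0.10, adjusted p = 3.15e-11), and its value with iohexol, 0.33 ± 0.11 (adjusted p = 0.0526), did not pass the test with all samples but did without iohexol replicate 3 (0.34).

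NAGLU, which removes N-acetylglucosamine from heparan sulfate, was at 16.4, 15.3 and 16.7 CPM in the control samples, 41.5, 37.3 and 31.2 with iohexol, 8.30, 10.4 and 9.75 with cisplatin and 25.6, 27.0 and 25.4 with vancomycin. No 2 groups of NAGLU overlapped. It rose most with iohexol (1.203 ± 0.13, adjusted p = 6.51e-05), by less with vancomycin (0.65 ± 0.12) and fell with cisplatin (-0.77 ± 0.12), and iohexol exceeded vancomycin directly by 0.50 ± 0.11 (adjusted p = 0.00103). IDUA, which removes iduronic acid from glycosaminoglycans, was at 4.57, 4.33 and 4.54 CPM in the control samples, 9.05, 9.53 and 7.62 with iohexol, 2.85, 2.65 and 3.43 with cisplatin and 10.9, 12.8 and 11.3 with vancomycin. Its groups did not overlap, with log2 fold changes of 0.98 ± 0.17, -0.59 ± 0.20 and 1.34 ± 0.17, and the fall with cisplatin was lost without cisplatin replicate 1 (-0.56) or 2 (-0.51). IDUA lies across SLC26A1 on the opposite strand, which shares 13.4% of its exon bases and received 2153 counts against 1291 for IDUA, and the strand setting of the counting is not given in the sources used here.

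GLB1, the galactosidase of gangliosides and keratan sulfate, was at 79.8, 83.0 and 80.6 CPM in the control samples, 88.4, 91.0 and 87.6 with iohexol, 53.3, 51.4 and 46.8 with cisplatin and 178, 207 and 219 with vancomycin. It rose by 1.27 ± 0.09 with vancomycin and fell by 0.68 ± 0.07 with cisplatin. MANBA, which cleaves the last mannose of glycoprotein glycans, was at 32.1, 31.6 and 29.7 CPM in the control samples, 38.3, 36.4 and 38.2 with iohexol, 13.1, 13.7 and 13.2 with cisplatin and 55.8, 57.1 and 56.1 with vancomycin. Its fall with cisplatin (-1.22 ± 0.10, adjusted p = 9.8e-09) made it a DEG, and it rose with vancomycin (0.81 ± 0.10). GAA, the glucosidase that degrades glycogen, was at 28.7, 38.1 and 40.5 CPM in the control samples, 36.8, 38.9 and 27.3 with iohexol, 37.6, 42.5 and 44.5 with cisplatin and 75.5, 72.5 and 84.4 with vancomycin. GAA thus stood apart from the controls only in the vancomycin samples (1.07 ± 0.12), and its cisplatin value of 0.21 ± 0.11 passed the test without control replicate 3 (0.30). The glucuronidase GUSB, the hexosaminidase subunit HEXA and the mannosidase MAN2B1 rose with vancomycin alone (0.92, 0.83 and 0.25), and FUCA1, the fucosidase, with vancomycin (0.92) and iohexol (0.41). The call of MAN2B1 was lost without vancomycin replicate 1 (0.23) or 3 (0.20) or any control replicate (0.23 to 0.26), and that of FUCA1 with iohexol without iohexol replicate 1 (0.36) or 2 (0.45) or any control replicate (0.33 to 0.43). HEXA passed with iohexol without iohexol replicate 3 (0.39), and with cisplatin without cisplatin replicate 1 (-0.31) or control replicate 1 (-0.27).

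The 5 sulfatases rose together with vancomycin, with a median of 0.61, while 3 of them fell and 1 rose with cisplatin. ARSB (ENSG00000113273, chr5:78777209-78986087, minus strand) removes sulfate from dermatan and chondroitin sulfate. It was at 22.1, 22.8 and 23.2 CPM in the control samples, 17.5, 17.4 and 17.0 with iohexol, 4.85, 5.72 and 5.02 with cisplatin and 30.3, 27.2 and 33.7 with vancomycin. The 4 groups did not overlap. ARSB had the largest fall of all members with cisplatin, 4.37-fold (-2.13 ± 0.12, adjusted p = 1.11e-10), and was the only member lower with iohexol and cisplatin and higher with vancomycin. Its fall with iohexol (-0.38 ± 0.11, adjusted p = 0.0332) was lost without iohexol replicate 1 (-0.39) or 2 (-0.39) or any control replicate (-0.40 to -0.38), and its rise with vancomycin (0.38 ± 0.12, adjusted p = 0.00714) without vancomycin replicate 3 (0.31). GALNS and ARSA, which act on keratan sulfate and on sulfatide, fell with cisplatin (-0.78 and -0.53) and rose with vancomycin (0.98 and 0.96). GALNS passed with iohexol without iohexol replicate 3 (0.41). IDS, the iduronate sulfatase, rose with cisplatin (0.59) and vancomycin (0.39), and SGSH, the sulfamidase of heparan sulfate, with iohexol (0.62) and vancomycin (0.61).

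Of the lipid hydrolases and the acid phosphatase, 6 genes in all were tested, of which 5 rose with vancomycin and 4 fell with cisplatin. ASAH1, the acid ceramidase, was at 110, 105 and 103 CPM in the control samples, 208, 202 and 230 with iohexol, 64.6, 72.4 and 72.8 with cisplatin and 277, 307 and 278 with vancomycin. Its groups did not overlap, with log2 fold changes of 1.03 ± 0.09 (adjusted p = 7.46e-06), -0.60 ± 0.07 (adjusted p = 1.16e-06) and 1.40 ± 0.09 (adjusted p = 2.15e-12). SMPD1, the acid sphingomyelinase that makes ceramide, was at 8.71, 7.65 and 9.01 CPM in the control samples, 14.9, 13.0 and 9.95 with iohexol, 17.9, 19.5 and 23.4 with cisplatin and 14.6, 16.5 and 16.9 with vancomycin. Every treated sample of SMPD1 lay above every control, and unlike ASAH1 it was highest with cisplatin. Its values were 1.26 ± 0.13 with cisplatin (adjusted p = 2.4e-07), 0.88 ± 0.14 with vancomycin and 0.60 ± 0.17 with iohexol. The iohexol call of SMPD1 was lost without iohexol replicate 1 (0.46) or 2 (0.56) or control replicate 2 (0.51) or 3 (0.63). The acid lipase LIPA, the phospholipase PLA2G15 and the thioesterase PPT1 each fell with cisplatin (-0.58, -0.40 and -0.32) and rose with vancomycin (0.71, 0.50 and 0.24). The vancomycin call of PPT1 was lost without vancomycin replicate 2 (0.22) or control replicate 2 (0.20) or 3 (0.22), and PLA2G15 passed with iohexol without iohexol replicate 3 (0.26). PPT1 shares 23.4% of its exon bases with CAP1 on the opposite strand, which received 40327 counts over the 12 samples against 25660 for PPT1, and without strand the reads of both cannot be told apart. ACP2, the acid phosphatase, did not pass the test with any drug, with values between -0.25 and 0.11.

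PSAP (ENSG00000197746, chr10:71816298-71851375, minus strand) was at 1705, 1763 and 1745 CPM in the control samples, 2626, 2557 and 2252 with iohexol, 1576, 1576 and 1618 with cisplatin and 4105, 4638 and 4458 with vancomycin. Its groups did not overlap, and it rose 2.46-fold with vancomycin (1.30 ± 0.08, adjusted p = 1.8e-12) and 1.45-fold with iohexol (0.53 ± 0.08, adjusted p = 0.000675). With cisplatin the difference was small (-0.13 ± 0.05, adjusted p = 0.0225), was lost without any cisplatin replicate (-0.14 to -0.12) or without control replicate 2 (-0.13), and had the opposite sign under library size alone (0.089). NPC2, which hands cholesterol to the membrane protein NPC1, was at 86.9, 96.3 and 88.0 CPM in the control samples, 101, 91.4 and 88.0 with iohexol, 102, 106 and 112 with cisplatin and 174, 206 and 192 with vancomycin (1.03 ± 0.09, adjusted p = 8.47e-10). NPC2 also rose with cisplatin (0.24 ± 0.07). NPC1 itself rose with iohexol (0.42) and vancomycin (0.54), and GM2A, the activator of ganglioside breakdown, fell with cisplatin (-0.38) and rose with vancomycin (0.72).

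The 8 membrane proteins had the highest median with iohexol of the 8 roles (0.78, with 5 genes called higher, and 0.39 with 4 of 7 without CLN3), and their responses to the drugs differed from gene to gene. With cisplatin 2 rose and 4 fell (median -0.21), and with vancomycin 5 rose (median 0.43). Without CLN3 the medians were -0.37 with cisplatin and 0.40 with vancomycin. CTNS (ENSG00000040531, chr17:3636468-3661542, plus strand) encodes cystinosin, which exports cystine from the lysosome. It was at 19.5, 23.3 and 23.7 CPM in the control samples, 57.8, 60.1 and 49.6 with iohexol, 22.7, 20.4 and 21.7 with cisplatin and 23.7, 27.1 and 29.3 with vancomycin. The lowest iohexol sample exceeded the highest sample of every other group. CTNS rose 2.55-fold with iohexol (1.35 ± 0.12, adjusted p = 1.27e-05), its values with cisplatin and vancomycin were -0.04 ± 0.10 and 0.22 ± 0.12, and iohexol exceeded vancomycin directly by 1.06 ± 0.11 (adjusted p = 9.55e-08) and cisplatin by 1.37 ± 0.11 (adjusted p = 3.38e-09).

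MCOLN1, the calcium channel of the lysosomal membrane, was at 11.5, 14.2 and 15.9 CPM in the control samples, 35.3, 28.6 and 30.1 with iohexol, 27.3, 30.5 and 32.5 with cisplatin and 18.7, 13.8 and 20.02 with vancomycin. The iohexol and cisplatin samples overlapped each other and lay above every control and vancomycin sample. MCOLN1 rose by 1.19 ± 0.14 with iohexol (adjusted p = 0.000128) and 1.12 ± 0.12 with cisplatin (adjusted p = 3.52e-07), and exceeded the vancomycin group directly by 0.84 ± 0.14 and 0.78 ± 0.14 (adjusted p = 4.4e-05 and 6.79e-05). SLC17A5, which exports sialic acid, was at 36.1, 29.7 and 28.9 CPM in the control samples, 72.4, 66.6 and 71.7 with iohexol, 16.6, 16.7 and 18.7 with cisplatin and 71.9, 73.0 and 68.7 with vancomycin. It rose with iohexol (1.17 ± 0.11) and vancomycin (1.13 ± 0.11), with a direct difference of -0.02 ± 0.09 (adjusted p = 0.874), and fell with cisplatin (-0.86 ± 0.11, adjusted p = 2.95e-06).

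CD63 (ENSG00000135404, chr12:55725323-55729707, minus strand) marks late endosomes and lysosomes. It was at 233, 359 and 355 CPM in the control samples, 484, 450 and 267 with iohexol, 315, 335 and 348 with cisplatin and 1150, 1431 and 1329 with vancomycin. The vancomycin samples stood far above all others, and control replicate 1 and iohexol replicate 3 were the lowest of their groups. CD63 rose 4.01-fold with vancomycin (2.00 ± 0.12, adjusted p = 1.42e-12). Its value with iohexol was 0.36 ± 0.20 (adjusted p = 0.236) with all samples and passed without iohexol replicate 3 (0.59), and with cisplatin it was 0.08 ± 0.11 with all samples and passed in the other direction without control replicate 1 (-0.10). LAMP1 was at 372, 408 and 390.1 CPM in the control samples, 517, 527 and 469.8 with iohexol, 306, 302 and 296 with cisplatin and 549, 541 and 570.0 with vancomycin. The 4 groups of LAMP1 did not overlap, and it rose with iohexol (0.39 ± 0.08) and vancomycin (0.46 ± 0.08) and fell with cisplatin (-0.37 ± 0.06). LAMP2 fell with cisplatin (-0.53) with values of -0.11 and -0.00 for the other drugs, and SCARB2, an integral membrane protein of lysosomes, fell with cisplatin (-0.70) and rose with vancomycin (0.40). CLN3, the protein lost in juvenile Batten disease, was at 0.290, 0.376 and 0.395 CPM in the control samples, 0.760, 1.15 and 1.14 with iohexol, 0.727, 1.97 and 1.36 with cisplatin and 1.63, 1.49 and 0.678 with vancomycin. The drug groups of CLN3 overlapped each other and lay above the controls, with values of 1.51 ± 0.43, 1.90 ± 0.47 and 1.76 ± 0.49 that rested on 188 counts over the 12 samples and, like those of IFI30, are a description only. Its iohexol call was lost without iohexol replicate 2 (1.41) or 3 (1.43) or any control replicate (1.40 to 1.58), and 25.2% of its exon bases are shared with AC138894.1 on the same strand.

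**Figure D4:**
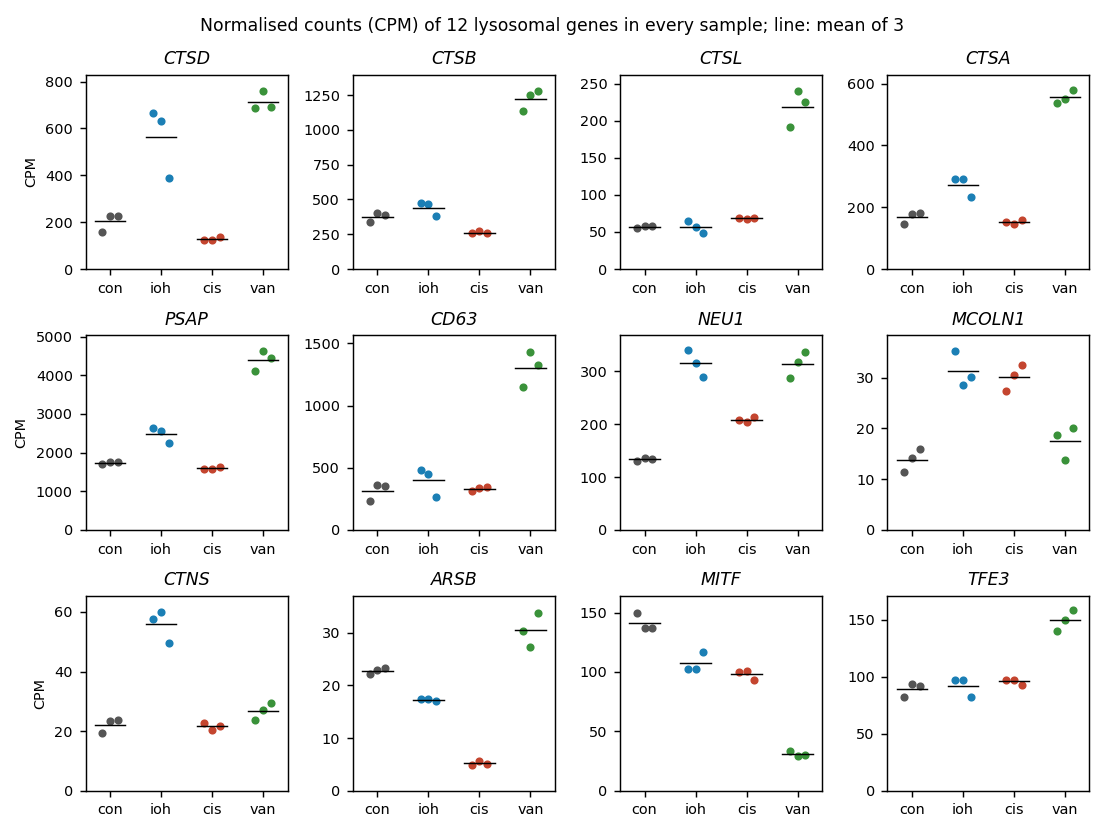
Normalised counts (CPM, vertical axes from 0) of 12 lysosomal genes in every sample, with a point for each of the 3 samples of the control (con), iohexol (ioh), cisplatin (cis) and vancomycin (van) groups and a line at each mean. CTSB, CTSL and CD63 stand apart in the vancomycin samples, CTNS in the iohexol samples, MCOLN1 in the iohexol and cisplatin samples, and ARSB is lowest with cisplatin and MITF with vancomycin.

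The mannose 6-phosphate receptors both rose with vancomycin, M6PR by 0.79 ± 0.09 and IGF2R by 0.41 ± 0.10. IGF2R, the large receptor that also clears IGF2, was at 515, 552 and 556 CPM in the control samples, 624, 720.1 and 693 with iohexol, 368, 354 and 349 with cisplatin and 822, 619 and 775 with vancomycin. All its cisplatin samples lay below the controls and all iohexol and vancomycin samples above. It fell with cisplatin (-0.60 ± 0.05) and rose with iohexol (0.35 ± 0.08), a call that was lost without iohexol replicate 2 (0.29) or control replicate 1 (0.31) or 2 (0.35). M6PR shares 29.3% of its exon bases with PHC1 on the opposite strand.

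The 3 transcription factors moved in different directions with vancomycin. MITF (ENSG00000187098, chr3:69739435-69968337, plus strand) was at 150, 137 and 137 CPM in the control samples, 102, 103 and 117 with iohexol, 99.8, 101 and 93.6 with cisplatin and 33.1, 29.6 and 30.5 with vancomycin. Every treated sample lay below every control, and the vancomycin samples below all others. MITF fell 4.69-fold with vancomycin (-2.23 ± 0.10, adjusted p = 3.98e-15), by less with cisplatin (-0.53 ± 0.07, adjusted p = 2.42e-06) and with iohexol (-0.38 ± 0.09, adjusted p = 0.0114), and the iohexol call was lost without iohexol replicate 2 (-0.36). TFE3 was at 81.9, 93.7 and 91.8 CPM in the control samples, 97.2, 96.7 and 82.4 with iohexol, 97.3, 97.3 and 93.0 with cisplatin and 141, 150 and 159 with vancomycin. TFEB was at 5.66, 4.77 and 5.92 CPM in the control samples, 7.05, 7.16 and 4.68 with iohexol, 3.82, 4.12 and 4.49 with cisplatin and 7.57, 9.79 and 8.07 with vancomycin. Both rose with vancomycin, TFE3 by 0.70 ± 0.09 (adjusted p = 4.23e-07) and TFEB by 0.59 ± 0.18 (adjusted p = 0.00661). With iohexol and cisplatin the values were 0.07 and 0.10 for TFE3 and 0.23 and -0.39 for TFEB, and TFEB passed with cisplatin without control replicate 2 (-0.50). These are transcript levels, and the activity of these factors, which depends on their phosphorylation and entry into the nucleus, was not measured.

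The comparisons described above share their control samples. The drugs were therefore also compared directly, although their doses are not matched in kind or strength. Iohexol was above cisplatin for 33 members and below it for 7 (27.9% and 26.0% of 17073 genes), with a median difference of 0.54, and 9 were DEGs (17.5% of all genes). The widest differences were those of CTSD (2.13 ± 0.15), SLC17A5 (2.02 ± 0.10) and NAGLU (1.95 ± 0.12). Iohexol was above vancomycin for 4 members, MITF, CTNS, MCOLN1 and NAGLU, and below it for 35 (27.6% and 29.0% of all genes), with a median of -0.44 and 13 DEGs (20.1% of all genes). CTSL (-1.95 ± 0.10), CD63 (-1.70 ± 0.17) and CTSB (-1.47 ± 0.09) were furthest below. Cisplatin was above vancomycin for MITF, MCOLN1 and SMPD1 and below it for 44 members (30.0% and 34.7% of all genes), with a median of -0.94 and 26 DEGs (28.5% of all genes), led by ARSB (-2.55 ± 0.12), CTSD (-2.47 ± 0.16) and CTSB (-2.22 ± 0.09). Scaling by library size alone shifted the median of all genes in these contrasts by -0.13, 0.21 and 0.34.

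Members with CACGTG in a promoter window had median log2 fold changes of 0.48 with iohexol, 0.02 with cisplatin and 1.03 with vancomycin over the 14 genes. Those with a window but without the word had medians of 0.17, -0.21 and 0.71 over 26 genes tested. Of the 14, 9 rose and 1 fell with iohexol, 4 rose and 5 fell with cisplatin, and 13 rose with vancomycin, the exception being MCOLN1. Of the 26, 7 rose and 1 fell, 5 rose and 12 fell, and 22 rose and 1 fell. IFI30 and CLN3 are both among the 14, and without them the medians of the other 12 were 0.38, -0.09 and 0.89, with 7, 2 and 11 genes higher. For the longer palindromes the medians with cisplatin were -0.15 over the 7 members with TCACGTGA against -0.05 over the 33 without, and -0.19 over the 4 with GTCACGTGAC against -0.07 over the 36 without. With vancomycin the medians were 0.98 against 0.79 for TCACGTGA and 0.69 against 0.80 for GTCACGTGAC, and with iohexol 0.39 against 0.20 and 0.33 against 0.24. CLN3 is among the 7 and had their highest value with each drug (1.51 with iohexol, 1.90 with cisplatin and 1.76 with vancomycin). IFI30 is among the 33, and both genes are among the 36. Medians without both genes were not made for the longer palindromes, so these medians are a description only and no order is drawn from them. Of the genes whose sequences are shown, NEU1, which rose with cisplatin, had CACGTG in its window. ARSB, which fell with cisplatin, had it in 1 of its 2 windows, and in the window of CTSL it was not found. The part of the word in these changes was not tested.

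Genes outside the list that belong to the same organelle were counted for comparison, beside the shares of all genes given above (11.2% higher and 9.77% lower with iohexol, 29.2% and 30.6% with cisplatin, and 29.0% and 28.8% with vancomycin). Of further lysosomal enzymes, 19 of 23 tested rose with vancomycin (median 0.59), 9 rose and 2 fell of 24 with iohexol (median 0.28), and 3 rose and 14 fell of 24 with cisplatin (median -0.30). The tartrate-resistant phosphatase ACP5 rose from 43.8 CPM on average in the control group to 102 with iohexol and 229 with vancomycin, with log2 fold changes of 1.24 ± 0.11 and 2.34 ± 0.09, and CTSV, a close relative of CTSL, rose with cisplatin from 54.2 to 154 CPM (1.51 ± 0.07). Further membrane proteins had no common direction with vancomycin, with 9 higher and 7 lower of 21 (median 0.01), and 4 higher and 1 lower, and 3 higher and 10 lower, of 20 with iohexol and cisplatin. Of the 21, LAPTM5 passed the filter on low counts through its vancomycin samples (26, 33 and 36 counts, against 2, 10 and 4 in the controls). Of 14 genes for sorting and activation of the enzymes, 7 fell and 1 rose with cisplatin, among them SUMF1 (-1.89 ± 0.14), which activates the sulfatases, and the sorting receptor SORL1 (-2.77 ± 0.19). With vancomycin 6 rose and 3 fell, and SORT1, another sorting receptor, fell by 1.84 ± 0.09. With iohexol 3 rose. Of 15 regulators of TFEB tested, 11 rose and 2 fell with vancomycin, 4 rose with iohexol, and 3 rose and 6 fell with cisplatin, where the counts lay near the shares of all genes. The adaptor FNIP2 rose with iohexol (1.02 ± 0.09) and vancomycin (1.51 ± 0.09), and the Rag-Ragulator component LAMTOR2 with vancomycin (1.33 ± 0.13).

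Some cathepsins and CD63 are also abundant in macrophages, and the summed level of 8 leukocyte markers was 174 to 188 CPM in the vancomycin samples, compared with 73.2 to 79.3 in the controls, 48.5 to 66.7 with iohexol and 78.1 to 83.5 with cisplatin. This sum consisted mainly of CD74, the invariant chain of MHC class II, which rose with vancomycin from 60.6 to 166 CPM on average (1.41 ± 0.09). CD14, a surface marker of monocytes and macrophages, also rose with vancomycin, from 0.790 to 2.84 CPM (1.803 ± 0.37), and with iohexol, to 1.71 CPM (1.14 ± 0.34). CSF1R, the receptor of a macrophage growth factor, was at 13.5 CPM in the control group, 8.91 with iohexol, 7.63 with cisplatin and 11.9 with vancomycin, and fell with cisplatin (-0.82 ± 0.13). ITGAM had 0 to 33 counts per sample, and the defining markers PTPRC, LYZ, HLA-DRA and TYROBP were at or near 0 in all groups. The summed level of 6 markers of endothelium or fibroblasts was 70.1 to 78.3 CPM with vancomycin, against 39.0 to 48.8 in the controls, 32.1 to 35.6 with iohexol and 52.2 to 56.2 with cisplatin, and of the 4 that were tested with vancomycin 3 rose and 1 fell. The matrix proteoglycan DCN rose from 12.3 to 30.5 CPM (1.27 ± 0.12), COL1A1, a collagen chain, from 30.6 to 41.8 (0.41 ± 0.12) and the receptor PDGFRB from 0.607 to 1.36 (1.12 ± 0.42), while PECAM1 of endothelium fell from 1.33 to 0.0831 CPM (-3.87 ± 0.65). Not all control samples of PDGFRB and no vancomycin sample of PECAM1 reached the level of the filter on low counts. The changes of PDGFRB and PECAM1, counted among the 4, are thus a description only. VWF and CDH5 had at most 8 and 3 counts in any sample. The 12 markers of the proximal tubule summed to 687 to 824 CPM in the controls and 369 to 393 with cisplatin. With iohexol they summed to 804 to 1014 CPM and with vancomycin to 785 to 882. A list of 6 keratins, cadherins and vimentin summed to 1591 to 1633 CPM in the controls and 1050 to 1153 with iohexol. With cisplatin its sum was 1693 to 1745 CPM and with vancomycin 2117 to 2316. The part of any of these markers in the lysosomal result was not tested.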

How the data were processed

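The authors deposited read counts per gene, as whole numbers with no normalization, for 58735 genes in 12 HK-2 samples, beside each gene's length. Per the submitters' processing notes, CASAVA 1.8, fastp, HISAT2 2.0.5, featureCounts 1.5.0-p3 and DESeq2 1.20.0 were used, and the strand setting and annotation release are not given in the sources used here. All gene identifiers occur in GENCODE release 29 (GRCh38), and 58724 of them, including the 54 members, have the same start and end there.

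From the counts, edgeR 4.0.16 in R 4.3.3 was run with TMM factors, glmQLFit and glmQLFTest, for each drug with the 3 control samples in a separate fit, and for direct contrasts between drugs in a fit of all 12 samples. Genes entered when they passed filterByExpr (minimum count 10, total 15), and Benjamini-Hochberg adjustment was made over all genes tested. The SE is the size of the log2 fold change divided by the square root of F. CPM used TMM factors over all 12 samples, and RPKM also the deposited gene length, which covers the exons of all isoforms. Total counts per sample, 14057282 to 18177109, set the precision, with a floor of 3 counts.

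Values of every sample are given for the members that were DEGs with any drug, for those with the largest changes or called with all drugs, and for the transcription factors. Of the other gene lists, DEGs and markers are named, except for a few genes that are not reported here, and the members and lists were chosen with earlier results of these data known. For IFI30 and CLN3, which passed the filter through the treated samples only, summaries were also made without them, a choice made after the data were seen. CTSZ, which this rule does not cover, was added after its values were seen. Reads that overlapping genes could share were assessed from GENCODE exons. Promoter windows were searched for motifs on both strands, which is the same search for palindromes, and the last 20 bases of 57 of the 64 windows of members were found in a transcript of their gene. The scripts were tested on simulated data. Alternatives were DESeq2 1.42.0, limma-voom (limma 3.58.1), RLE factors, library size only, no filter (at least 1 count), 1 fit for all 4 groups, a block for the replicate number, and omission of each sample in turn. Figures were drawn with matplotlib 3.10.9.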

Additional observations from a re-analysis of the deposited data

How the results depend on the processing

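Counts of lysosomal genes called higher or lower were within 1.5 times of those reported under DESeq2, limma-voom, RLE factors and no filter in all 6 comparisons. With library size only, cisplatin gave 23 members higher than the control group in place of 12, iohexol 1 lower in place of 2, vancomycin 3 lower in place of 1, iohexol against vancomycin 8 DEGs in place of 13, and cisplatin against vancomycin 7 higher in place of 3. In that setting the cisplatin values of CTSC (0.18), GUSB (0.20), MAN2B1 (0.17) and PSAP (0.089) changed sign. In the fit of all 4 groups, 4 members were lower with iohexol. Leaving out each sample in turn gave 17 to 29 members higher with iohexol, 0 to 3 members lower with iohexol (0 without iohexol replicate 2), 1 to 2 lower with vancomycin, and 4 to 6 lower with iohexol than with cisplatin in place of 7. CD63 changed sign with cisplatin without control replicate 1 (-0.10). The replicate numbers of the labels do not pair the samples. After the group means were subtracted, same-numbered samples had a mean correlation of -0.0209 over 18 pairs, against 0.0106 over 36 other pairs. With the replicate number as a block, iohexol gave 18 members higher, 0 lower and 8 DEGs, cisplatin 13, 25 and 7, and vancomycin 46, 1 and 21. The direct contrasts gave 33 higher, 6 lower and 9 DEGs for iohexol against cisplatin, 4, 33 and 13 for iohexol against vancomycin, and 2, 44 and 26 for cisplatin against vancomycin with the block. The causes were not tested, apart from fewer samples or another scaling by construction. Depth limits IFI30 and CLN3, with 202 and 188 counts over 12 samples. GALC is listed at 0, and the cause was not tested.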

Other observations

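Further lysosomal enzymes that were not described above were DEGs with vancomycin. With vancomycin, the dipeptidyl peptidase DPP7 rose from 113 CPM on average in the control group to 295 (log2 fold change 1.34 ± 0.11), the carboxypeptidase SCPEP1 from 9.34 to 27.2 (1.498 ± 0.13), and the acid nuclease DNASE2 from 36.2 to 78.6 (1.07 ± 0.11). The phosphotransferase subunit GNPTG, which takes part in making the mannose 6-phosphate tag, rose with vancomycin from 19.0 to 41.5 CPM (1.08 ± 0.11) and fell with cisplatin to 15.6 CPM (-0.29 ± 0.11).

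With cisplatin the prenylcysteine oxidase PCYOX1 fell from 110 to 47.5 CPM (-1.22 ± 0.07), the arylsulfatase ARSG from 2.47 to 0.968 CPM (-1.34 ± 0.34), the calcium-permeable channel TPCN1 from 350 to 119 CPM (-1.55 ± 0.07) and SUMF2, the relative of the sulfatase activator SUMF1, from 42.0 to 19.6 CPM (-1.10 ± 0.10). The protease inhibitors of the cystatin family that were tested, CSTB and CST3, both rose with vancomycin, CSTB from 92.3 to 198 CPM (1.06 ± 0.09) and CST3 from 197 to 274 CPM (0.44 ± 0.09). CSTB fell with cisplatin, to 68.3 CPM (-0.44 ± 0.07). The Rag GTPase RRAGD rose with all 3 drugs, from 36.0 CPM to 64.5 with iohexol, 45.4 with cisplatin and 65.1 with vancomycin, and so did the folliculin gene FLCN, from 31.04 CPM to 45.5, 49.0 and 44.9. RRAGD and FLCN were chosen after their values were seen.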
